A study of Mus musculus with 4 samples.

Results

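General capillary endothelial cells of the mouse lung are described here, as 575 cells picked out of 1283 kept cells in 2 lung libraries by the transcripts they held. A kept cell had at least 500 unique molecular identifiers (UMIs, each standing for 1 captured RNA molecule) and at most 15% of them from mitochondrial genes. A general capillary cell had to hold Gpihbp1 and at least 1 of Hmcn1, Adgrl3, Aplnr and Cxcl12. It also had to hold fewer than 3 of the aerocyte genes Fibin, Ednrb, Car4, Emp2, Tbx2 and Ptp4a3, fewer than 2 of the venous genes Slc6a2, Vcam1, Prss23, Cytl1 and Mgp, fewer than 2 of the lymphatic genes Ccl21a, Mmrn1 and Reln, and no UMI of the leukocyte gene Ptprc. In the wild-type library 353 of 775 kept cells met the rule, which is 45.5% (exact 95% interval 42.0 to 49.1). In the knockout library 222 of 508 did, or 43.7% (39.3 to 48.1), so the intervals of the shares overlap. The 4 libraries of the series held 3256 kept cells in all.

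The study compared endothelial cells with intact Oct4 (Pou5f1 in the files, known from pluripotent cells as a transcription factor) with cells in which that gene was deleted in the endothelium. All mice were female, of strain C57/B6J, from a line that lacks Apoe and traces endothelial cells with eYFP through a Cdh5 driver, and all ate a Western diet for 5 weeks. Wild-type cells came from 2 mice and knockout cells from 3, and the labels give 1 library for each genotype and tissue. Digestion of the left lung lobe took place with actinomycin D, an inhibitor of transcription, at 1 µg/mL. Cells positive for eYFP were then sorted, against littermates without the Cdh5 driver. With 1 library per genotype no difference has a replicate check, no p-value is given, and each interval covers counting error only. Genotype, mice, digestion and library cannot be told apart.

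The alveolar capillary bed of the mouse lung holds endothelial cells of different kinds. Aerocytes, marked by Car4 and Ednrb, are large, thin cells that lie against the alveolar type 1 cells where gas is exchanged. General capillary cells carry Gpihbp1, the protein that brings lipoprotein lipase to the luminal face of capillaries, together with Aplnr, the apelin receptor, and Kit, the stem cell factor receptor, and they are known for renewing the capillary bed after injury.

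The 353 wild-type cells held 637728 UMIs and the 222 knockout cells 420790. Median depth per cell was 1618 and 1744 UMIs, with 935 and 1014 genes detected and 2.91% and 2.97% mitochondrial UMIs. Aerocytes, here cells with at least 3 of the aerocyte genes and under the other limits, numbered 136 and 102 with medians of 2326 and 2008.5 UMIs. Venous cells, chosen likewise, numbered 72 and 51 with medians of 1716.5 and 2466 UMIs. Levels are given as CPM, which is a gene's UMIs divided by the UMI sum of its gate and multiplied by 1000000. The knockout library carried more RNA of other cells outside the gate, where the summed airway club and ciliated markers reached 52498 CPM and erythroid markers 51283 CPM. Inside the gate the club and ciliated list stood at 303 CPM in wild-type and 741 CPM in knockout cells, with Scgb1a1 alone going from 29.8 to 449 CPM. Erythroid markers stood at 1.57 and 78.4 CPM in the gate. The part of this RNA in the values below was not tested. The libraries shared 2 deposited barcodes and 1 barcode among the gate cells. Scrublet, a doublet caller, marked 6 wild-type and 7 knockout cells of the lung and 0 cells of the gate.

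The cells were chosen by their UMIs of the genes of the rule, so these values are given as a description. Gpihbp1 (15:75596628-75599481, mm10) stood at 2595 CPM in wild-type and 2666 CPM in knockout cells, with a median of 4 UMIs per cell and at most 20 and 18. It was also present outside the gate, at 287 and 252 CPM in aerocytes and 764 and 1000 CPM in venous cells. Hmcn1, a large matrix protein, was the most widely held of the further markers, in 64.9% of wild-type and 62.6% of knockout gate cells. Adgrl3, an adhesion receptor, was held by 35.4% and 36.5%. Cxcl12, the chemokine that binds Cxcr4, was held by 40.5% and 49.5%. Aplnr was the least held, in 27.5% and 21.6%. Most gate cells held only 1 or 2 of these 4 genes. The numbers with 1, 2, 3 and 4 of them were 157, 153, 41 and 2 in the wild-type library and 102, 86, 32 and 2 in the knockout library.

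Many cells stood close to the rule. A further 84 wild-type and 51 knockout cells held Gpihbp1 and passed every exclusion but held none of the 4 further markers. Another 50 and 23 cells met all conditions except Gpihbp1 itself. At the aerocyte limit, 23 wild-type and 22 knockout cells inside the gate held 2 aerocyte genes, and 6 and 7 cells just outside held 3. Igfbp7, an aerocyte transcript that the rule did not use, stood at 271 CPM in the wild-type cells with 2 aerocyte genes and at 1062 CPM in those with 3. In the knockout library the same levels were 593 and 846 CPM. Cells with 4 or more aerocyte genes held 10890 and 14919 CPM of Igfbp7, so the cells next to the limit were far from aerocyte levels on either side of it.

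The label was checked against transcripts the rule did not use. Endothelial genes were present in the wild-type and knockout gate. Cdh5, the adherens junction cadherin, stood at 1471 and 1476 CPM and Cldn5, the tight junction claudin, at 3570 and 4489 CPM. Cells had been sorted for eYFP traced through a Cdh5 driver, so these genes are no check of the capillary label. Aerocytes held 1973 and 2220 CPM of Cdh5. Of 8 lymphatic markers outside the rule, 4 were at 0 in the wild-type and 5 in the knockout gate, including Prox1 and Pdpn. The list still summed to 762 and 765 CPM, led by Lyve1 at 698 and 727 CPM. Other kept lung cells held 551 and 586 CPM of Lyve1. Of 11 macrophage markers 9 were at 0 in the wild-type gate and 7 in the knockout gate, and the list summed to 28.2 and 26.1 CPM. The rule's bar on Ptprc had already left out cells with that leukocyte gene. Clustering of all lung cells without the 20 genes of the rule put 537 of the 575 gate cells, or 93.4%, into 5 of 11 clusters. These 5 were chosen as the clusters in which most cells met the rule, so this share was in part set by that choice. The cluster led by Fibin, Ednrb and Igfbp7 and the cluster led by Ccl21a and Mmrn1 held 0 gate cells. The rule limits Fibin, Ednrb, Ccl21a and Mmrn1, so these counts were largely set in advance and are no check. In the first of these clusters, 129 of 131 wild-type and 92 of 94 knockout cells were in the aerocyte gate. Of the 38 gate cells outside the 5 clusters, 23 lay in a cluster led by Gja5, Mgp and Cytl1 and 12 in a cluster led by Slc6a2 and Fabp4. In the 5 clusters, each chosen for its majority of gate cells, between 64.0% and 75.0% of all cells met the rule.

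Against aerocytes, general capillary cells held far more Plvap, Ptprb, Cd93, Kit and Lpl and far less Igfbp7, Itgb5 and Chst1. These differences are a description of how far apart the gates lie, since the same cells set the gates. Of 3017 genes that averaged 50 CPM or more and held 30 UMIs or more over the gates compared, 192 were at least 2-fold higher in both libraries (6.36%) and 166 at least 2-fold lower in both (5.5%). With cells thinned to 1000 UMIs the counts were 122 and 86. Of 15 general capillary markers listed from the literature and not used by the rule, 14 passed this filter and 11 were at least 2-fold higher. Of 15 listed aerocyte markers, 15 passed and 13 were at least 2-fold lower. The markers were listed because they differ between these cell types, so these counts check the label and are no finding. Against venous cells 14 of the general capillary markers passed the filter and 5 were at least 2-fold higher in both libraries. They thus set the gate apart from aerocytes more than from venous cells.

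The genes ranked highest against aerocytes had varied roles, surface proteins among them. Plvap (8:71497765-71511752, mm10), which forms the diaphragm of caveolae and fenestrae, stood at 1646 CPM in wild-type and 1773 CPM in knockout cells, against 69.6 and 200 CPM in aerocytes. That is 23.6-fold (15.8 to 37.1) and 8.87-fold (6.58 to 12.2) higher. Caveolar coat genes were nearer level, with Cav1 at 1910 and 1887 CPM against 1262 and 1321 CPM and Cavin2 at 2001 and 2241 CPM against 2054 and 1812 CPM. Ptprb, the vascular phosphatase that acts on Tek, was 14.1-fold (10.4 to 19.5) and 8.72-fold (6.49 to 11.97) higher. Tek, the angiopoietin receptor, stood at 613 and 661 CPM against 72.5 and 109 CPM. Cd93, a surface lectin, was 14.9-fold and 7.15-fold higher, and Cemip2, a membrane protein tied to hyaluronan, 47.6-fold (13.0 to 396, from 2 aerocyte UMIs) and 26.8-fold (8.99 to 131, from 3). Of other roles, Iigp1, an interferon-inducible GTPase, was 16.9-fold and 14.9-fold higher, and Acer2, an alkaline ceramidase, 11.1-fold and 10.2-fold. The class II chain H2-Ab1 was 14.4-fold and 19.8-fold higher, and Adamts1, a secreted metalloprotease, 11.5-fold and 15.04-fold. Lyve1, a hyaluronan receptor better known from lymphatic vessels, stood at 698 and 727 CPM against 60.9 and 99.9 CPM.

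Some ligands and receptors differed between the gates. Kit (5:75574916-75656722, mm10) stood at 216 and 266 CPM in general capillary cells and 17.4 and 21.7 CPM in aerocytes, while its ligand Kitl stood at 135 and 162 CPM against 746 and 704 CPM. Apln, the ligand of Aplnr, stood at 1.57 and 7.13 CPM in general capillary cells and 107 and 148 CPM in aerocytes. Aplnr itself was used by the rule, so its level says nothing of the pair. Among vascular endothelial growth factor genes, the receptor Kdr stood at 191 and 221 CPM against 1140 and 1278 CPM and the co-receptor Nrp1 at 488 and 516 CPM against 1448 and 1330 CPM. The ligand Vegfa had the opposite order, 108 and 155 CPM against 8.71 and 26.1 CPM, as did the receptor Flt1, 466 and 580 CPM against 261 and 256 CPM. Edn1, the precursor of endothelin, stood at 844 and 982 CPM against 17.4 and 170 CPM, while its receptor Ednrb, which the rule used, marked aerocytes. Of the 20 listed ligands 10 passed the filter, of which 4 exceeded the aerocyte level by 2-fold or more and 2 lay as far below it. Of the 24 receptors 16 passed, with 5 higher and 2 lower. Over all 3017 genes the shares were 6.36% higher and 5.5% lower.

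Genes of lipid handling and of haemostasis followed the same gap in part. Lpl, the lipase that Gpihbp1 carries, stood at 1168 and 1022 CPM against 72.5 and 213 CPM, 16.1-fold and 4.80-fold higher than in aerocytes. Cd36, the fatty acid translocase, was near level, at 2630 and 2538 CPM against 2287 and 2464 CPM. Fabp4, the fatty acid binding protein of many capillaries, stood at only 18.8 and 2.38 CPM in the gate and at 681 and 295 CPM in venous cells. Of 22 fatty acid genes listed, 7 passed the filter against aerocytes and 1, Lpl, was at least 2-fold higher in both libraries. The share over all 3017 genes was 6.36%. Plat, tissue plasminogen activator, stood at 347 and 532 CPM against 46.4 and 47.8 CPM. Several transcripts that were higher in general capillary cells than in aerocytes stood higher in knockout than in wild-type aerocytes. These were Edn1, Plvap and Lpl, above, and Vwf, at 65.2 against 5.80 CPM. Vwf was highest in venous cells, at 3245 and 3559 CPM. Levels of these genes in general capillary cells were nearer each other between the genotypes.

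**Figure D1:**
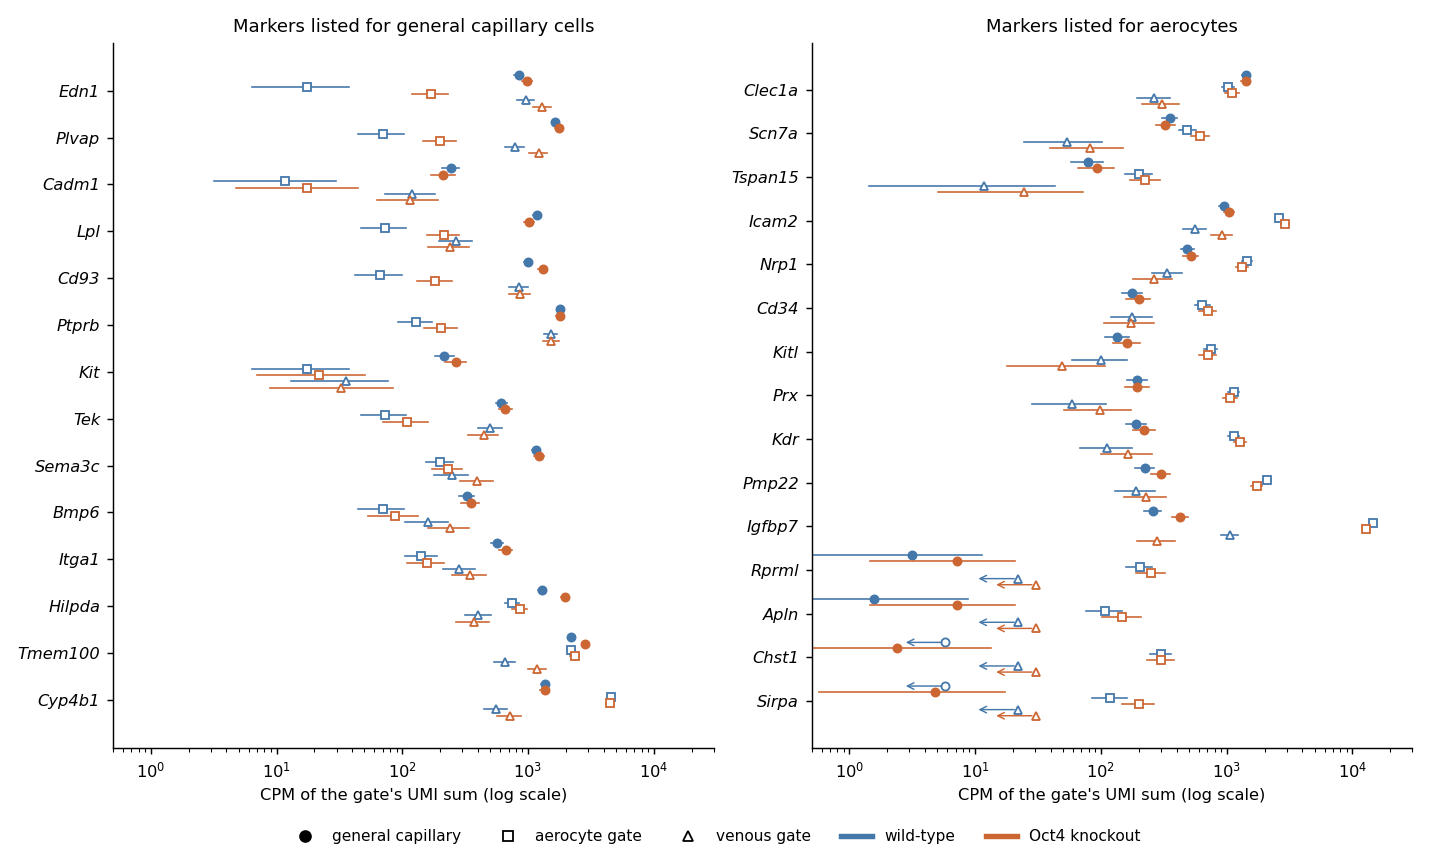
Listed markers that the rule did not use, in general capillary cells (circles), aerocytes (squares) and venous cells (triangles), wild-type in blue and knockout in orange; the axis is CPM of the gate's summed UMIs on a log scale, lines are exact 95% Poisson intervals, and an arrow marks a count of 0 drawn at its upper bound. General capillary markers such as Plvap and Kit lie to the right in the circles and aerocyte markers such as Igfbp7 and Chst1 in the squares, while Tmem100, Cyp4b1 and Clec1a do not follow their list.

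A few listed markers did not follow their name. Tmem100, a membrane protein of the BMP pathway, stood at 2203 and 2821 CPM in general capillary cells and 2208 and 2351 CPM in aerocytes. Cyp4b1, a cytochrome P450, was lower in general capillary cells, at 1353 and 1352 CPM against 4573 and 4480 CPM. Clec1a, a C-type lectin listed for aerocytes, was higher, at 1421 CPM in both libraries against 1027 and 1108 CPM. Glp1r, listed for general capillary cells, had 0 and 1 UMI in the gate. Of the 14 listed arterial genes 6 passed the filter, and Hey1, Sox17, Sema3g, Gja4 and Efnb2 were at least 2-fold above aerocytes. Sema3g, a semaphorin, for example stood at 296 and 299 CPM against 29.0 and 21.7 CPM. Over all 3017 genes 6.36% were at least 2-fold above aerocytes. Definitive arterial genes stayed low, with Gja5 at 10.98 and 14.3 CPM and Bmx at 42.3 and 35.7 CPM.

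Among the genes lowest against aerocytes, Itgb5, an integrin subunit, had 2 and 1 UMIs in the gate against 395 and 391 CPM, which is 126-fold (34.2 to 1050) and 165-fold (28.8 to 6571) lower. Igfbp7 (5:77349240-77408041, mm10), a secreted matrix protein, stood at 257 CPM in the wild-type gate against 14680 CPM in aerocytes, or 57.1-fold lower (48.9 to 67.1). In the knockout library it stood at 425 against 12701 CPM, or 29.9-fold lower (25.7 to 34.9). Chst1, a sulfotransferase, had 0 UMIs in the wild-type gate. With that count set to a floor of 3 UMIs per library it was 63.5-fold lower, with an interval bound of 50.7-fold. In the knockout library it was 126-fold lower (21.9 to 5055) from 1 UMI. Enho, Rprml, Tmeff2 and C1qtnf2 had 2 to 7 UMIs each in a library's gate, against 145 to 426 CPM in aerocytes. Itgb5 and Chst1 were thus at or near 0 in the gate.

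Against venous cells fewer genes stood apart. Of 2778 genes, 86 were at least 2-fold higher in both libraries (3.1%) and 49 at least 2-fold lower (1.76%). With cells thinned to 1000 UMIs these counts were 52 and 21. The wild-type venous gate also held RNA of fibroblasts, whose 9 listed markers summed to 3801 CPM there and 32.8 CPM in the knockout venous gate, against 18.8 and 9.51 CPM in general capillary cells. The part of this RNA in the venous comparison was not tested. Clec1a was 5.33-fold (3.95 to 7.36) and 4.68-fold (3.36 to 6.72) higher, Lpl 4.38-fold and 4.298-fold, and Kit 6.09-fold and 8.12-fold. Hilpda, an inhibitor of lipolysis, was 3.19-fold and 5.33-fold higher, and Sema3c, a semaphorin, 4.69-fold and 3.10-fold. Cpe, a carboxypeptidase, had 0 UMIs in the gate of both libraries against 628 and 467 CPM in venous cells. With the floor of 3 UMIs it was 133-fold and 65.6-fold lower, with interval bounds of 107-fold and 51.6-fold. Vwf, the platelet adhesion factor of larger vessels, stood at 356 and 428 CPM against 3245 and 3559 CPM. Selp, the adhesion receptor P-selectin, had 0 UMIs in the gate and 148 and 180 CPM in venous cells. Plvap, Cd93 and Ptprb, by contrast, were present in venous cells too, with Ptprb at 1516 and 1533 CPM there. At 1000 UMIs Plvap was detected in 54.0% and 71.4% of venous cells and 65.3% and 71.9% of gate cells. Tek was detected in 47.6% of venous cells in both libraries and in 49.8% and 50.3% of gate cells. Cemip2 was detected in 22.2% and 35.7% of venous cells and 20.5% and 24.3% of gate cells. For Acer2 the shares were 34.9% and 35.7% of venous cells and 38.0% and 48.6% of gate cells. Lyve1, high against aerocytes, was higher still in venous cells, at 1338 and 1845 CPM against 698 and 727 CPM in the gate. Against all other kept lung cells together, 65 of 2995 genes were at least 2-fold higher in both libraries (2.17%) and 48 at least 2-fold lower (1.6%). The higher count was 15 with at least 2 further markers required, 108 with Gpihbp1 alone, 38 in thinned cells and 31 with means of per-cell CPM. In the knockout library 1 deep cell of 42860 UMIs gave 6.91% of the UMIs of those other cells.

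Between the genotypes, MHC class II genes, Npr3, Pde4b and Hebp1 stood higher in knockout general capillary cells, and Lpin2, Gmfg and Cd200 lower. Most genes were near level. Of 3301 genes past the same filter, knockout cells had 34 higher by 2-fold or more (1.03%) and 15 lower by as much (0.454%). A further count puts 2970 genes (90.0%) within 1.5-fold. The median over all genes was 0.04 on the log2 scale. With a mean of at least 100 CPM required, 11 genes were higher and 2 lower, and with at least 20 CPM 86 and 73. With cells thinned to 1000 UMIs, 45 genes were higher and 50 lower, so more genes were then lower than higher. With at least 2 further markers required the counts were 60 and 51. The deleted gene could not be checked in these cells: Pou5f1 had 0 UMIs in the wild-type gate, for which a floor of 3 UMIs is 4.70 CPM and the exact upper bound 5.78 CPM, and 1 UMI in the knockout gate. Apoe transcripts stood at 285 and 271 CPM, and a 3' tag does not show which part of a gene was deleted.

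MHC class II molecules present peptides from outside the cell to CD4+ T cells, and lung capillary endothelium is known to carry them. Cd74, the invariant chain that guides them, stood at 194 CPM in wild-type and 934 CPM in knockout cells, 4.80-fold higher (3.92 to 5.93). H2-Aa, an alpha chain, stood at 70.6 and 264 CPM, 3.74-fold higher (2.62 to 5.41), and H2-Eb1, a beta chain, at 58.0 and 202 CPM, 3.48-fold (2.34 to 5.27). H2-Ab1, the beta chain that pairs with H2-Aa, stood at 209 and 430 CPM, 2.06-fold higher (1.64 to 2.60). H2-DMb1, a chain of the peptide loader H2-DM, stood at 21.95 and 147 CPM, 6.71-fold higher (3.72 to 13.0). Its log2 ratio of 2.75 was 3.88 with cells thinned to 1000 UMIs, and 21.1% of its 3' sequence is shared with other genes. All 5 listed class II genes that passed the filter were thus at least 2-fold higher, against 1.03% of all 3301 genes. Of the other 5, H2-DMa stood at 21.95 and 73.7 CPM and Ciita, the class II transactivator, at 9.41 and 14.3 CPM, both below the filter. H2-DMb2, H2-Oa and H2-Ob were at 0.

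Promoters of 3 of the 5 higher class II genes are shown because these genes were high together, and such promoters are known to hold an X box, bound by RFX factors, and a Y box, bound by NF-Y. The 150 bases before the start of 3 genes are printed 5′ to 3′ on the gene's strand, from RefSeq on GRCm38.p6. H2-Aa is on the minus strand at chr17:34287824-34287973, H2-Eb1 on the plus strand at chr17:34305717-34305866 and H2-DMb1 on the plus strand at chr17:34153041-34153190. Capitals mark CTNGNAACT, the X-like letters, followed by TGATTGG, the Y-like letters.
H2-Aa: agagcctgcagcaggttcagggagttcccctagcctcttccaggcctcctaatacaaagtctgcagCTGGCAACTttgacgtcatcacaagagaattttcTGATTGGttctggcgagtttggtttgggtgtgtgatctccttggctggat
H2-Eb1: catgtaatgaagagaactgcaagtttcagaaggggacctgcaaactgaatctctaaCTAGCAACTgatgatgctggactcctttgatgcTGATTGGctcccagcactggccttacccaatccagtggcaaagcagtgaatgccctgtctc
H2-DMb1: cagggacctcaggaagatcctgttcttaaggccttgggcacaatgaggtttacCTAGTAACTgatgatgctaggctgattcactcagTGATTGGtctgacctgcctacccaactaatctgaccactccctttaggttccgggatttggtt
The letters were chosen after these sequences were seen. The X-like letters began 84, 94 and 97 bases before the start in H2-Aa, H2-Eb1 and H2-DMb1, and 25, 24 and 25 bases separated them from the Y-like letters. In a search of both strands of 32851 RefSeq promoters of 300 bases, 7.82% held TGATTGG, 4.10% held CTNGNAACT and 0.350% held both. In 5 promoters the X-like letters stood 15 to 30 bases ahead of the Y-like letters, and 3 of these were the genes above. The letters fit these 3 promoters and the window spans their spacing, so finding them was set in advance. The count is therefore no measure of how particular the letters are to class II genes. The 2 promoters listed for H2-DMa held neither set of letters, and those of Cd74 and H2-Ab1 were not examined here. A match is a description of letters, not of binding.

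**Figure D2:**
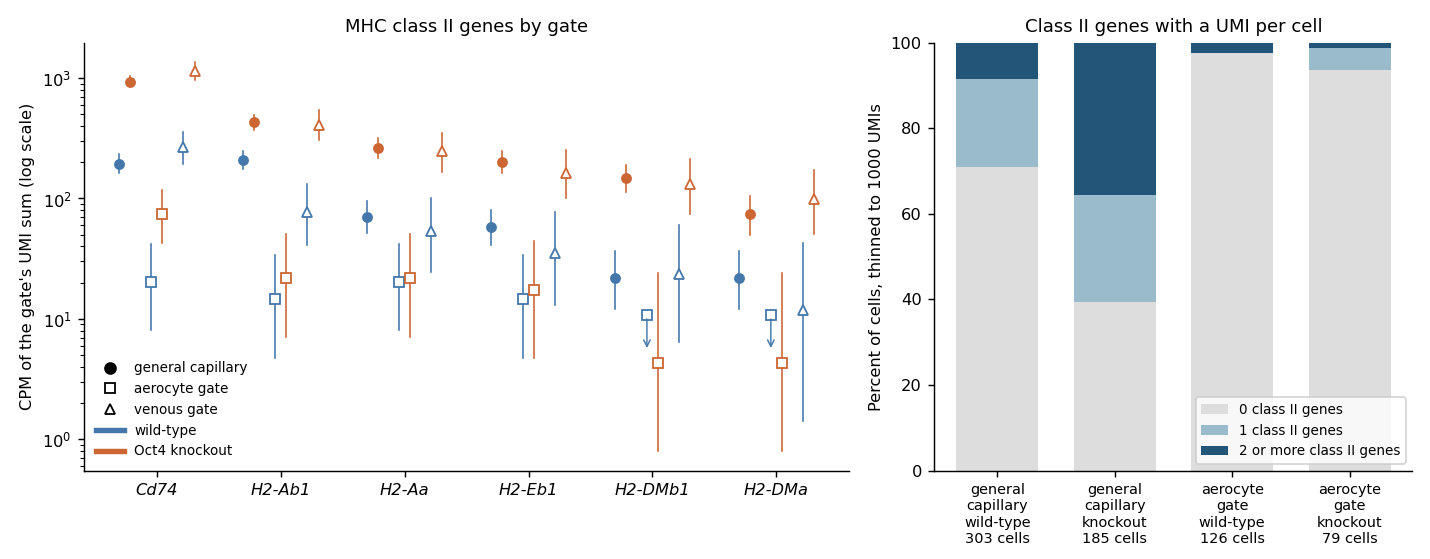
MHC class II genes in lung general capillary cells, aerocytes and venous cells, wild-type in blue and knockout in orange, as levels in CPM with exact 95% Poisson intervals (left; an arrow marks a count of 0 at its upper bound) and, for the first 2 gates, as the percentage of cells with 0, 1, and 2 or more of the 6 genes at 1000 UMIs per cell (right). Cd74 goes from 194 to 934 CPM between the genotypes in general capillary cells and stays below 75 CPM in aerocytes.

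Class II transcripts were spread over many cells. After each cell was thinned to 1000 UMIs, leaving 303 wild-type and 185 knockout gate cells, at least 2 of 6 class II genes (Cd74, H2-Aa, H2-Ab1, H2-Eb1, H2-DMa and H2-DMb1) were detected in 26 wild-type cells, or 8.58% (5.68 to 12.3). In the knockout library 66 cells did so, or 35.7% (28.8 to 43.0). Unthinned, the shares were 16.4% and 45.9%. Aerocytes, which hold little class II RNA, gave 2.38% and 1.27% at 1000 UMIs, 3 of 126 and 1 of 79 cells. Cd74 alone was detected in 10.6% of wild-type and 41.6% of knockout gate cells at 1000 UMIs (15.3% and 50.5% unthinned), and in 0 of 126 and 2 of 79 aerocytes. The highest class II count in a single gate cell was 19 UMIs in the wild-type and 29 in the knockout library, and no cell gave over 3.56% of the knockout Cd74 UMIs.

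Within clusters Cd74 was higher in knockout gate cells and other class II genes less clearly so, and venous cells showed the difference too. In 4 clusters with at least 20 gate cells of each genotype, Cd74 was 4.37, 3.33, 3.61 and 3.13 times the wild-type level, and the other 4 genes were higher in 4 of 4, from as few as 1 wild-type UMI for H2-DMb1. H2-Ab1 stood at 1.16 to 1.79 times the wild-type level and H2-Eb1 at 1.23 to 4.53 times. The cluster led by class II genes themselves held 16 wild-type and 23 knockout gate cells and was not compared. These were 4.53% of the wild-type and 10.4% of the knockout gate, and their part in the ratios of the whole gate was not tested. All clusters split the same gate cells that ranked these genes, so they are no replicate check. Venous cells, whose wild-type gate held the fibroblast RNA given above, had Cd74 at 266 and 1148 CPM and H2-Ab1 at 77.0 and 410 CPM. Aerocytes held 20.3 and 73.9 CPM of Cd74 and 14.5 and 21.7 CPM of H2-Ab1. Leukocyte markers were near 0 in the gate in both libraries, with 18 and 11 UMIs of the macrophage list, 0 and 1 of the dendritic list and 0 and 3 of the lymphocyte list. The rule barred cells with Ptprc, so these low counts were in part set by it. The airway and erythroid RNA given above did move with genotype. Alveolar type 2 markers went from 1.57 to 30.9 CPM in the gate and from 25.7 to 1237 CPM in other kept lung cells. Lymphocyte markers went from 14.0 to 271 CPM in those other cells. Fibroblast, smooth muscle, neutrophil and dendritic markers were lower in the other cells of the knockout library. The part of all this RNA was not tested.

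Most MHC class I and peptide loading genes were within 1.5-fold between the genotypes, and H2-Q7 and H2-Q6 were the highest. H2-Q7 stood at 655 and 1338 CPM, 2.04-fold higher (1.80 to 2.32). H2-Q6 was 1.91-fold higher (1.62 to 2.24), but 49.4% of its 3' sequence is shared with other genes and its reads may be split with H2-Q7 and other copies. Both were higher in aerocytes too, where H2-Q7 stood at 281 and 817 CPM. Using 1.5-fold as the limit, 6.09% of all 3301 genes were higher in the knockout gate and 3.94% lower. Of the 19 class I and peptide loading genes 18 passed the filter, with 3 higher, 1 lower and a median of 0.21 (log2). B2m, the light chain, stood at 5822 and 7669 CPM. Of 24 interferon response genes 20 passed, with 1 higher (Rnf213), 1 lower and a median of 0.19. The lower gene was Iigp1, at 489 and 323 CPM, while Ifit3 stood at 67.4 and 76.0 CPM.

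**Figure D3:**
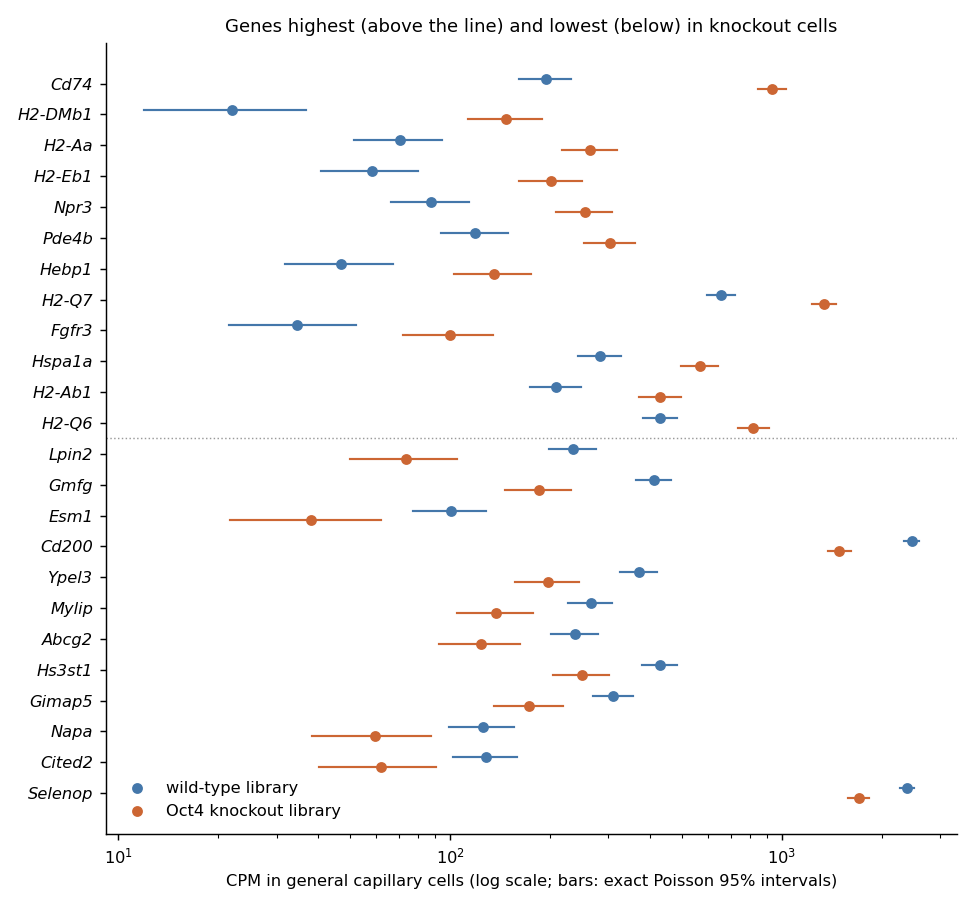
The 12 highest and 12 lowest genes in knockout against wild-type lung general capillary cells, ranked by the bound of the ratio's exact 95% interval nearest to 1; the axis is CPM on a log scale and lines are exact 95% Poisson intervals. The class II genes Cd74, H2-DMb1, H2-Aa, H2-Eb1 and H2-Ab1 are among the 12 highest. The intervals of the genotypes do not overlap for any of the 24 genes, which the ranking largely set in advance.

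The other genes ranked highest had varied roles. Npr3, the natriuretic peptide clearance receptor, stood at 87.8 and 254 CPM, 2.90-fold higher (2.08 to 4.08), and was higher in 3 of 4 clusters. Pde4b, a cyclic AMP phosphodiesterase, stood at 119 and 304 CPM, 2.55-fold higher (1.91 to 3.44). Hebp1, a heme-binding protein, stood at 47.0 and 135 CPM, 2.88-fold higher (1.82 to 4.64). Fgfr3, a fibroblast growth factor receptor, stood at 34.5 and 99.8 CPM, 2.89-fold higher (1.69 to 5.09), while aerocytes held 223 and 187 CPM of it. Hspa1a, the inducible heat shock protein, stood at 282 and 566 CPM, with 15.5% of the knockout UMIs in 1 cell. It was also higher in aerocytes, at 110 and 300 CPM. Each of these genes except Npr3 was higher in 4 of 4 clusters, though Hspa1a stood at a ratio of only 1.08 (0.586 to 1.93) in 1. The clusters hold the same cells that ranked these genes and are no replicate.

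Among the genes ranked lowest, Lpin2 (17:71182560-71249817, mm10), a phosphatidate phosphatase of triglyceride synthesis, stood at 235 and 73.7 CPM, 3.19-fold lower in the knockout gate (2.16 to 4.86). It was at 0.475, 0.356, 0.281 and 0.391 times the wild-type level in the 4 clusters. In aerocytes it stood at 194 and 52.1 CPM, a ratio of 0.268. Gmfg, an actin regulator, stood at 411 and 185 CPM, 2.22-fold lower (1.72 to 2.89), and 36.9% of its 3' sequence also occurs in other genes. Cd200, a surface glycoprotein that restrains myeloid cells, stood at 2457 and 1490 CPM, 1.65-fold lower (1.502 to 1.81), and was at 810 and 548 CPM in aerocytes. Abcg2, an efflux transporter, stood at 238 and 124 CPM, 1.93-fold lower (1.40 to 2.70), while aerocytes held 58.0 and 104 CPM. Selenop, a selenium carrier, had the narrowest gap, 2380 and 1702 CPM, 1.40-fold (1.28 to 1.53). Mylip, Hs3st1, Gimap5 and Napa were 1.72-fold to 2.11-fold lower and lower in 4 of 4 clusters. Napa stood at a ratio of only 0.987 (0.314 to 2.69) in 1 of them. The clusters split the same cells that ranked these genes, so they are no replicate.

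Values of Esm1, Cited2 and Gmfg, all among the lowest genes, moved with the setting. Esm1, a secreted proteoglycan of sprouting endothelium, stood at 100 and 38.0 CPM, but 56.2% of its 16 knockout UMIs lay in 1 cell. Without the cell holding most UMIs its log2 ratio went from -1.40 to -2.29, and with at least 2 further markers required it was -3.15. Cited2, a transcriptional coregulator, stood at 129 and 61.8 CPM with a log2 ratio of -1.06, which was -0.11 with cells thinned to 1000 UMIs. The log2 ratio of Gmfg went from -1.15 to -1.61 in the thinned cells. Ypel3, the remaining gene of the lowest 12, stood at 370 and 197 CPM and was lower in 3 of 4 clusters.

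Lists of genes by role gave mostly small medians. Over all 3301 genes, 6.09% were at least 1.5-fold higher in the knockout gate and 3.94% lower. Haemostasis had the highest median after MHC class II among the 25 lists plotted: of 13 genes 7 passed, 3 were at least 1.5-fold higher and the median was 0.52 (log2). Thbd, the thrombin receptor that activates protein C, stood at 764 and 1200 CPM, Plat at 347 and 532 CPM and Entpd1, an ectonucleotidase that removes ADP, at 69.0 and 109 CPM. Ptgs1, a prostaglandin synthase, stood at 267 and 200 CPM. Of the 22 fatty acid genes 8 passed, 6 of them below and 2 above the wild-type level with a median of -0.12, and Lpin2 was the member at least 1.5-fold lower. Lpl stood at 1168 and 1022 CPM and Pnpla2, the triglyceride lipase, at 271 and 188 CPM.

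Immediate early genes, which respond to handling as well as to signals, had 5 of 19 members above and 14 below the wild-type level, with a median of -0.20. Socs3, a feedback inhibitor of cytokine signalling, stood at 756 and 504 CPM and Egr1 at 455 and 314 CPM. In aerocytes, where 8.08% of 3232 genes were at least 1.5-fold higher, the same list had 3 of 19 members past that limit and a median of 0.21, and the difference between the gates was not tested. Heat shock genes had 10 of 11 members passing, 2 at least 1.5-fold higher (Hspa1a and Hspa1b) and a median of 0.19, against 4 of 10 and 0.49 in aerocytes. In general capillary cells 6.09% of all 3301 genes were at least 1.5-fold higher.

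Identity genes, like most genes, were near level between the genotypes. Over all 3301 genes 90.0% lay within 1.5-fold, so counts of 0 in short lists are near that share. General capillary markers outside the rule had 1 of 14 members at least 1.5-fold higher, Hilpda, at 1286 and 1965 CPM, with a median of 0.11. Arterial genes had 0 of 6 past 1.5-fold and pan-endothelial genes 0 of 12. Ligands and receptors had 0 of 10 and 0 of 18, junction genes 0 of 12 and caveolar genes 0 of 9. Aerocyte markers had 1 of 11 higher in the gate, Igfbp7, at 257 and 425 CPM. Of 17 measured endothelial transcription factors, Klf3 was at least 1.5-fold higher, at 210 and 335 CPM, and Mef2c at least 1.5-fold lower, at 94.1 and 59.4 CPM. Klf2, the factor induced by laminar flow, stood at 3373 and 3261 CPM and Klf4 at 971 and 1212 CPM. Nuclear genes of oxidative phosphorylation had 0 of 52 higher, 1 lower and a median of -0.01, and glycolysis had 0 of 12 higher and 1 lower. Cell cycle genes were sparse, with Mki67 at 1 and 0 UMIs, and Ccnd1, a cyclin, stood at 32.9 and 92.7 CPM.

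**Figure D4:**
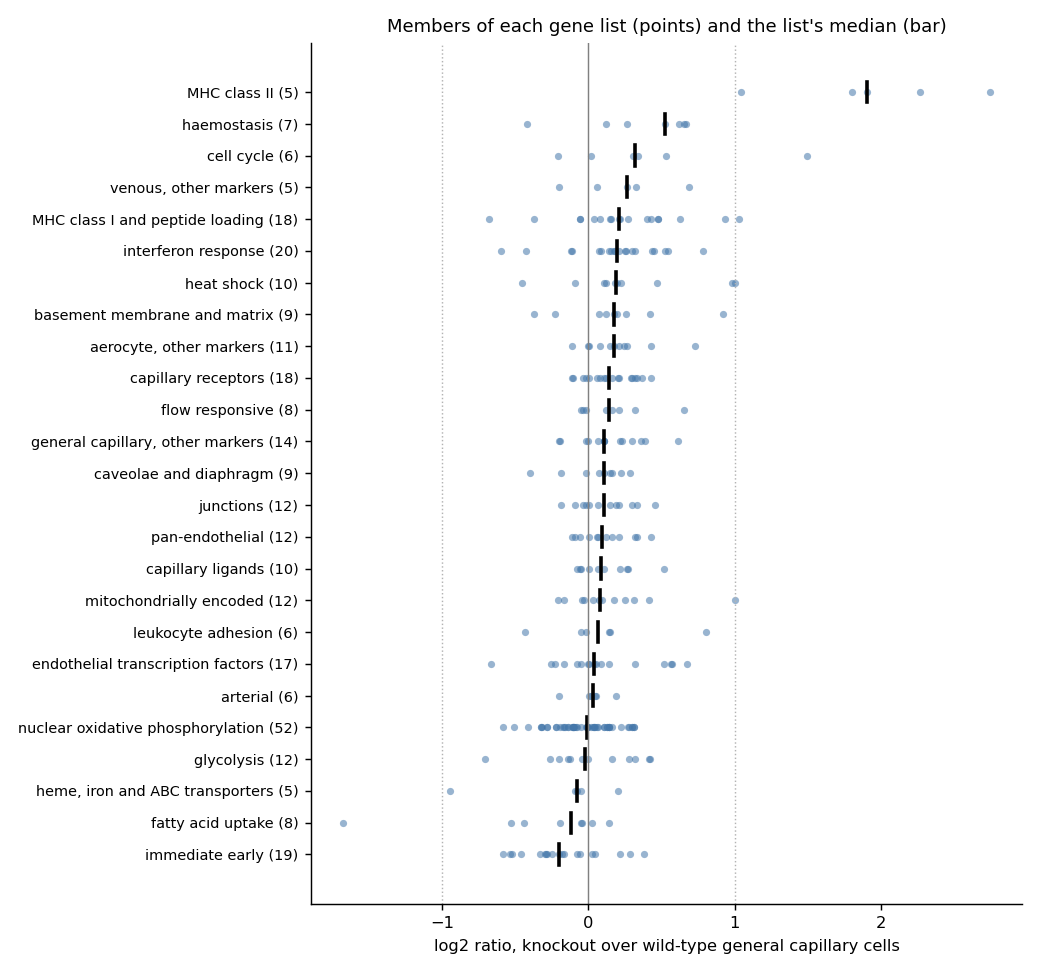
Knockout over wild-type log2 ratio of each measured member of 25 gene lists in lung general capillary cells, with the number of members that passed the filter in brackets and the list's median marked; dotted lines stand at a log2 ratio of -1 and 1. MHC class II has a median of 1.90, and the medians of the other lists lie between -0.20 and 0.52.

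General capillary cells also differed among themselves. With cells thinned to 1000 UMIs, the variance of a gene's UMIs over cells divided by their mean is 1 for random sampling alone. Over 1511 genes the median was 1.07 in both libraries, and 106 wild-type and 113 knockout genes exceeded 1.5. The highest were the nuclear RNA Malat1, at 13.1 and 12.1, then Ier3, a stress-response gene, at 5.07 and 4.79, and Actb, actin, at 4.53 and 5.71. Fos followed at 3.29 and 3.75, Hes1, a Notch target, at 3.34 and 3.01, and Edn1 at 2.96 and 4.36. Among the genes the rule used, Cxcl12 reached 2.86 and 2.53, with a UMI in 26.1% and 33.0% of thinned cells. Klf2 and Hspa1a were also among the 10 most uneven genes.

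**Figure D5:**
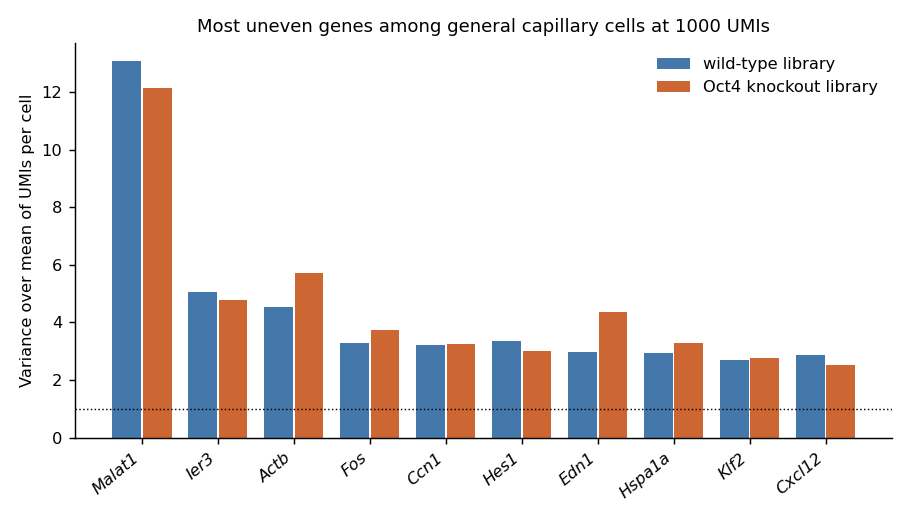
Variance over mean of UMIs per cell for the 10 most uneven genes of lung general capillary cells thinned to 1000 UMIs, wild-type in blue and knockout in orange; the dotted line at 1 is random sampling. Malat1 stands at 13.1 and 12.1 and the other 9 genes between 2.53 and 5.71.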

How the data were processed

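Droplet RNA sequencing of sorted eYFP-positive cells gave 1 library per genotype and tissue. The authors deposited UMI counts, whole numbers for each gene in each cell, from Cell Ranger and build mm10 (submitters' processing notes; version and annotation not given in the sources used here). Of 31053 Ensembl identifiers in the lung files, 30934 matched GENCODE M21 symbols and 119 did not, and 28 were merged with another of the same symbol. No correction for free RNA was made and doublets were kept, except in an alternative.

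Counts were summed per gate and library in Python 3.11.15 with numpy 2.4.6, scipy 1.17.1 and pandas 2.3.3, and divided by the gate's UMI sum to give CPM. Intervals are 95% and exact: Poisson for CPM, conditional for ratios and Clopper-Pearson for shares. A count of 0 was given a floor of 3 UMIs per library. Genes had to average 50 CPM and hold 30 UMIs. Clusters were made in scanpy 1.11.5 with leidenalg 0.10.2 at resolution 1 from 2000 variable genes, 30 components and 15 neighbours. Shared 3' sequence is the percent of 50-base words in the final 300 bases of its transcripts found in another gene as well. The computation was tested on simulated data.

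Genes named are the 12 highest and 12 lowest between genotypes, the 15 highest and 12 lowest against aerocytes and the 8 highest and 8 lowest against venous cells, in the order of the bound of the interval that lies closest to 1, the 10 most uneven, and members of the 37 lists with the outermost ratios or a known role in capillaries. Of those against aerocytes and venous cells, a part is described. Members and lists were chosen with earlier results of these data known. Cell filters, gate conditions, depth, scaling and the CPM filter were varied. The aortic libraries were used only to count cells meeting the rule.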

Additional observations from a re-analysis of the deposited data

Results flagged for a closer look

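Of 248 named or listed genes measured in both gates, 33 had knockout over wild-type intervals that left out 1 in general capillary cells and in aerocytes, and in 8 of these the ratios lay on opposite sides of 1. The difference between the gates was not tested. The early response genes Atf3, Junb and Jund stood at ratios of 0.793, 0.889 and 0.881 in general capillary cells and 1.78, 1.19 and 1.28 in aerocytes. Lpl, the lipoprotein lipase, stood at 0.875 and 2.94. The other genes were higher in the knockout general capillary cells: the aerocyte transcripts Igfbp7, at 1.65 against 0.865 in aerocytes, and Pmp22, at 1.34 against 0.824, the caveolar gene Cavin2, at 1.12 against 0.882, and Ly6e, at 1.23 against 0.893.

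In the aortic libraries, which no comparison here uses, 14 wild-type cells (3.47% of kept cells) and 56 knockout cells (3.57%) met the same rule of markers.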

How the results depend on the processing

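The share of kept lung cells in the gate (45.5% and 43.7%) was 25.3% and 23.6% with at least 2 further markers, 56.4% and 53.7% with Gpihbp1 alone, and 33.6% and 35.6% with cells thinned to 1000 UMIs first. Counts of genes at least 2-fold apart moved with the filter and depth. Against aerocytes, 192 higher and 166 lower became 122 and 86 thinned, and 101 and 110 at a mean of 100 CPM. Against venous cells, 86 and 49 became 52 and 21 thinned, and 44 higher at 100 CPM. Against all other lung cells, 65 higher became 15 with 2 further markers, 108 with Gpihbp1 alone, 38 thinned, 31 with per-cell means, 43 at 100 CPM and 100 at 20 CPM, and 48 lower became 21 at 100 CPM and 106 at 20 CPM. Between genotypes, 34 higher and 15 lower became 60 and 51 with 2 further markers, 11 and 2 at 100 CPM, and 86 and 73 at 20 CPM, and the lower count was 50 thinned. The other 98 of 126 such values stayed within 1.5 times or the interval. Of 336 log2 ratios recomputed for the 24 genes named between genotypes 0 reversed and 6 moved beyond their interval: H2-DMb1 to 3.88, Gmfg to -1.61 and Cited2 to -0.11 thinned, Hspa1a to 1.42 and Esm1 to -3.15 with 2 further markers, and Esm1 to -2.29 without its highest cell. Cd74 ranged from 2.00 to 2.38 and Lpin2 from -1.93 to -1.63. Between gates 20 of 1067 values moved and 0 reversed. The alternative with only the 5 main clusters was chosen after seeing the data. Why counts moved was not tested, except that other CPM minimums test other genes. No paired analysis was possible because each genotype is 1 library. At median depths of 1618 and 1744 UMIs a gene missing from a cell may be undetected.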
